A study of Saccharomyces cerevisiae with 12 samples.

Results

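The 32 genes described here encode the fatty acid beta-oxidation system of the budding yeast Saccharomyces cerevisiae and the machinery that builds the organelle in which it runs, the peroxisome. They comprise 13 beta-oxidation genes and 19 PEX genes, out of 5325 genes tested on the arrays. They were chosen by current standard gene name through the platform's gene annotation, a rule that itself reads no signal, and all 32 had at least 1 probe set that passed the filter on dim signals. POX1 had 4 probe sets and each of the others had 1. A gene is represented below by its probe set with the highest mean signal.

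In this yeast, fatty acids are broken down only in peroxisomes. The fatty acid is first joined to coenzyme A, enters the organelle, and is shortened in repeated rounds that yield acetyl-CoA and, at the oxidase step, hydrogen peroxide, which catalase removes. The peroxins, encoded by the PEX genes, insert the membrane proteins, import the folded enzymes from the cytosol and control the number and size of the organelles. Many of these genes are known for repression in excess glucose and, on oleate, for induction by the transcription factors Oaf1 and Pip2 together with Adr1. No culture here received a fatty acid as its carbon source, so the data address how these genes read when growth is limited by a sugar or by a C2 compound, ethanol or acetate, both of which enter metabolism as acetyl-CoA.

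RNA was measured on Affymetrix Yeast Genome S98 arrays in 12 aerobic steady-state chemostat cultures, 3 each limited by glucose, maltose, ethanol or acetate, 1 array per culture. The dilution rate, which fixes the growth rate, was 0.10 per hour in all of them, the temperature 30 °C and the pH 5.0. The strain is given as wild-type CEN.PK113-7D, a haploid laboratory strain of mating type MATa, in the records of the maltose, ethanol and acetate cultures; the glucose records are older and name no strain. Dissolved oxygen is recorded as above 80% of air saturation for glucose and as between 60% and 75% for the other sources, where the feed held 256 mmol of carbon per litre, so record age and oxygen cannot be told apart from glucose. The numbered cultures of a source are treated as replicates, and nothing says whether their RNA was prepared together.

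Signals are in arbitrary scaled units with the same 2% trimmed mean on every array. A signal of 12 was used as the floor, and log2 differences were tested with limma over all 7176 probe sets that passed the filter. A call is a Benjamini-Hochberg adjusted p under 0.05. Maltose array 2 was dim, with a median signal of 22.8 against 41.7 to 48.4 on the other 11, and 3617 of its probe sets were at or under the floor against 2213 to 2775 elsewhere. As a measure of RNA quality, the actin probe set for the 3' end was compared with that for the 5' end; this actin ratio reached 9.27 and 13.98 in ethanol cultures 2 and 3, 10.2 and 13.1 in acetate cultures 2 and 3, and no more than 3.31 elsewhere. In the labels 9 arrays carry the code letter P; the exceptions are glucose array 2 (V) and the first 2 of maltose (M), and what the letters stand for is not stated. Levels are compared only between arrays for 1 gene, not between genes.

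Of the 13 beta-oxidation genes, 12 read above the floor on every array, on sugars as well as on C2 compounds, DCI1 being the exception on maltose array 2. The mean signal of the highest source exceeded that of the lowest by 1.23-fold to 1.96-fold (median 1.36-fold over 13 genes), while the median coefficient of variation between cultures of 1 source was 15.9%. When the 6 C2 arrays were set against the 6 sugar arrays, 1 of 13 genes fell, FAA1, and 0 rose by limma. Over all tested probe sets 11.4% rose and 5.69% fell in this comparison, 817 and 408 of them, or 776 and 611 after quantile normalization. At an unadjusted p under 0.05 there were 2 of 13 genes, FAA1 and CTA1, beside 2293 of all 7176 tested probe sets. The median log2 difference of the 13 was 0.07, beside 0.12 over all tested probe sets. For 12 of the 13, FAA1 being the exception, the 95% interval of the difference, taken gene by gene without adjustment, lay inside 2-fold in either direction, as it did for 73.9% of all tested probe sets.

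**Figure D1:**
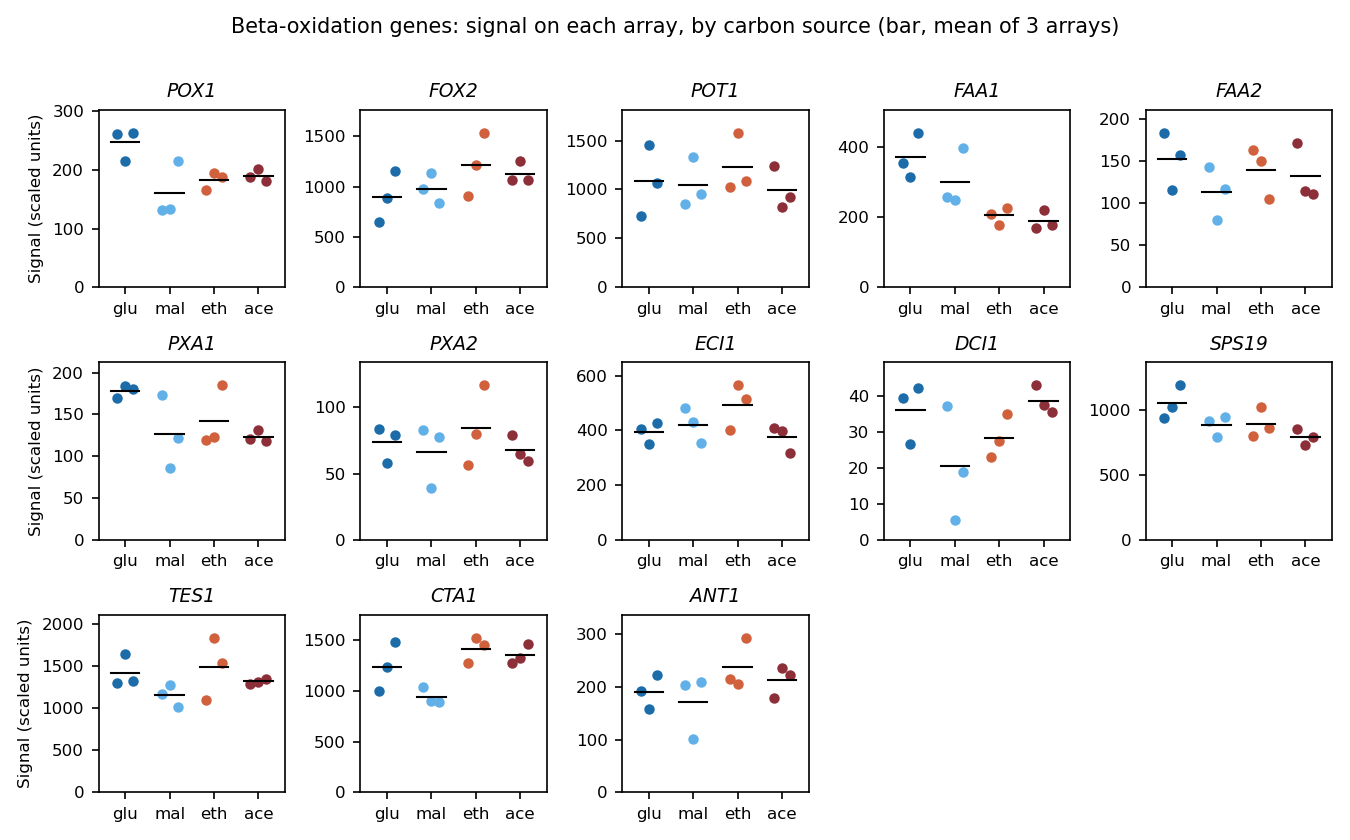
Signal in scaled units (vertical axes start at 0 and differ between panels) of the 13 beta-oxidation genes on each of the 12 arrays, by growth-limiting carbon source (glu, glucose; mal, maltose; eth, ethanol; ace, acetate); points are arrays 1 to 3 from left to right and bars are means of 3 arrays. FAA1 is the only panel in which all 6 ethanol and acetate arrays lie under all 6 sugar arrays, and no panel shows them all above.

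The gene that changed acts before the peroxisome. FAA1 (YOR317W) encodes an acyl-CoA synthetase that activates long-chain fatty acids taken up from the medium or released from lipids. Its signal was 356.0, 315.4 and 441.3 on the glucose arrays and 257.0, 249.9 and 397.9 on the maltose arrays, against 210.5, 177.8 and 227.4 on ethanol and 169.7, 221.0 and 178.3 on acetate. The lowest sugar array lay above the highest C2 array, a separation in this direction that 1.87% of tested probe sets showed. Between the 6 sugar and 6 C2 arrays FAA1 fell 1.68-fold, with a log2 difference of -0.75 ± 0.16 (SE) at an adjusted p of 0.00492 in limma. Among the pairs of sources, it was called lower on acetate than on glucose (log2 -0.96 ± 0.22, limma adjusted p = 0.0202), a call that ended in 7 of 23 alternatives, among them leaving out glucose array 1 or 3 or acetate array 3. Ethanol array 1 and acetate array 1 had actin ratios of 3.31 and 2.78, and the part of RNA quality in the FAA1 difference was not tested. When ethanol and acetate were each represented by array 1 alone (the array 1 fit), FAA1 stood at log2 -0.80 (limma adjusted p = 0.245, 2 C2 arrays in place of 6). The actin ratio covariate, the mean log2 3' to 5' ratio of actin and another control gene, gave log2 -0.73 (limma adjusted p = 0.2015). The call ended in both fits. It also ended without glucose arrays 1 and 3 (log2 -0.64, adjusted p = 0.0828).

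The peroxisomal counterpart of FAA1 did not move with it. FAA2 (YER015W) encodes the synthetase that activates medium-chain fatty acids inside the organelle. It read 183.3, 115.8 and 157.5 on glucose, 142.8, 79.6 and 116.4 on maltose, 163.5, 150 and 104.8 on ethanol, and 170.8, 114.8 and 110.5 on acetate. These 4 ranges overlap, and the C2 difference was log2 0.06 (95% interval -0.38 to 0.49, limma adjusted p = 0.885). Whether the FAA1 and FAA2 differences differ from each other was not tested.

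Among the transporters, PXA1 (YPL147W) and PXA2 (YKL188C) encode the pair of proteins of the ABC transporter that brings long-chain acyl-CoA into the peroxisome. PXA2 read 83.6, 58.2 and 78.7 on glucose, 82.9, 39.4 and 77.3 on maltose, 56.1, 80.1 and 116.4 on ethanol, and 78.7, 64.5 and 59.6 on acetate. The ranges overlap in every pair of sources. PXA1 ranged from 86.4 on maltose array 2 to 184.7 on ethanol array 3, and neither gene was called (log2 -0.17 and 0.12, limma adjusted p = 0.565 and 0.787). ANT1 (YPR128C), the adenine nucleotide carrier that supplies ATP inside the organelle, read 191.8, 157.4 and 222.4 on glucose, 204.7, 100.6 and 209.7 on maltose, 214.8, 205.2 and 293.0 on ethanol, and 179.7, 235.3 and 222.5 on acetate. Its C2 difference of log2 0.34 ± 0.20 was not called (limma adjusted p = 0.235), and it was log2 0.17 without maltose array 2.

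The 3 core enzymes of the spiral had no call in any comparison. POX1 (YGL205W) encodes the acyl-CoA oxidase of the first step. On its brightest probe set it read 261.6, 215.5 and 262.9 on glucose, 132.3, 134.0 and 215.8 on maltose, 166.0, 193.7 and 188.5 on ethanol, and 187.6, 201.7 and 180.2 on acetate. Glucose was thus the highest source and maltose spanned the values of the C2 compounds, with a C2 difference of log2 -0.08 (95% interval -0.41 to 0.25). The other 3 probe sets of POX1 disagreed in direction, at log2 0.52, -0.78 and -1.12, none of them called (limma adjusted p from 0.110 to 0.330).

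FOX2 (YKR009C) encodes the bifunctional hydratase and dehydrogenase of the middle steps. It read 645.1, 884.4 and 1154.4 on glucose, 972.2, 1133.7 and 837.6 on maltose, 902.3, 1219.0 and 1534.8 on ethanol, and 1062.3, 1252.8 and 1067.9 on acetate. The ranges overlap, and the difference of log2 0.33 ± 0.16 was not called (limma adjusted p = 0.179). POT1 (YIL160C) encodes the thiolase that releases acetyl-CoA. It read 727.9, 1458.0 and 1065.3 on glucose, 852.9, 1331.3 and 950.3 on maltose, 1022.9, 1578.4 and 1086.2 on ethanol, and 1243.5, 818.3 and 927.4 on acetate. Array 2 was the highest of its source on glucose, maltose and ethanol and the lowest on acetate, and the C2 difference was near 0 (log2 0.07, 95% interval -0.32 to 0.47).

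CTA1 (YDR256C), encoding the peroxisomal catalase, came closest to a rise among the 13. It read 1000.4, 1234.9 and 1482.6 on glucose, 1041.6, 900.8 and 890.3 on maltose, 1274.9, 1521.1 and 1449.8 on ethanol, and 1273.6, 1328.7 and 1457.6 on acetate. All C2 arrays lay above all maltose arrays, a separation that 18.6% of tested probe sets showed for ethanol and 1577 of 7176 for acetate. The CTA1 readings on glucose spanned both groups. The difference was log2 0.36 ± 0.13 with a limma adjusted p of 0.0602. It was called with a floor of 50 (adjusted p = 0.04665), after quantile normalization (adjusted p = 0.0454) and without glucose array 3 (log2 0.43, adjusted p = 0.0464). The array 1 fit of the C2 sources gave log2 0.25 and the actin ratio covariate 0.22, with no call in either.

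The auxiliary enzymes handle double bonds and free acyl-CoA. TES1 (YJR019C), an acyl-CoA thioesterase gene, read 1301.8, 1644.5 and 1325.1 on glucose, 1168.9, 1278.6 and 1017.4 on maltose, 1094.3, 1834.4 and 1534.7 on ethanol, and 1293.5, 1314.0 and 1347.9 on acetate. The 3 acetate cultures were nearly equal and the ethanol cultures spanned them. SPS19, the dienoyl-CoA reductase gene, and ECI1, the enoyl-CoA isomerase gene, ranged from 734.0 to 1189.0 and from 315.9 to 564.2 over the 12 arrays. DCI1, a paralog of ECI1 (YOR180C), read 39.3, 26.6 and 42.3 on glucose, 37.3, 5.6 and 18.9 on maltose, 22.9, 27.4 and 34.9 on ethanol, and 42.9, 37.4 and 35.4 on acetate, with maltose array 2 under the floor. None of these 4 was called; their log2 differences ran from -0.20 (SPS19) to 0.29 (DCI1).

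Most PEX genes had a higher mean on the C2 compounds than on the sugars, but few passed the test. By limma 3 of 19 rose, PEX18, PEX21 and PEX27, and 0 fell, beside the 11.4% of probe sets that rose and the 5.69% that fell overall. At an unadjusted p under 0.05 there were 8 of 19, beside 2293 of all 7176 tested probe sets. The median log2 difference was 0.27, beside 0.12 over all tested probe sets. Above 0 were 16 of 19 genes, as were 62.01% of all tested probe sets. In 2 genes, PEX21 and PEX27, all C2 arrays were above all sugar arrays, as in 5.76% of tested probe sets. Whether the PEX and beta-oxidation medians differ was not tested. Without maltose array 2 the median was 0.07, against 0.05 over all tested probe sets. The PEX median was 0.17 after quantile normalization and 0.34 in the array 1 fit, against 0.03 and 0.13 over all tested probe sets. For 14 of 19 genes the 95% interval lay inside 2-fold.

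**Figure D2:**
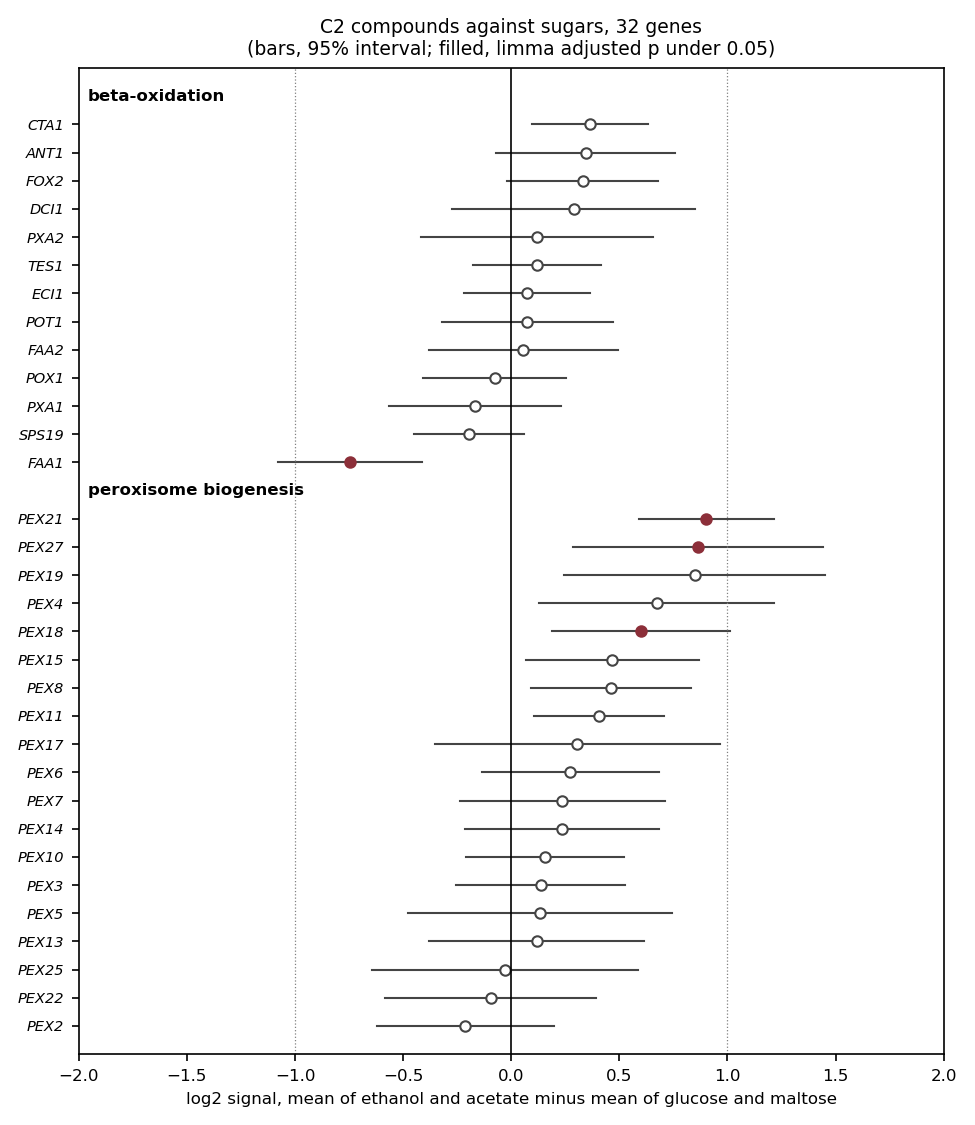
Log2 difference of C2 compounds (ethanol and acetate) against sugars (glucose and maltose) for the 13 beta-oxidation and 19 PEX genes, with 95% intervals from limma (12 arrays); filled points passed at an adjusted p under 0.05 and dotted lines mark 2-fold. FAA1 at -0.75 is the filled point to the left of 0, and PEX21, PEX27 and PEX18 at 0.90, 0.87 and 0.60 are those to the right.

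PEX21 (YGR239C) and PEX18 (YHR160C) encode co-receptors that act with Pex7 in importing enzymes that carry the N-terminal targeting signal. PEX21 read 199.5, 185.3 and 195.3 on glucose, 138.2, 177.2 and 160.8 on maltose, 335.4, 269.5 and 204.8 on ethanol, and 441.7, 359.9 and 411.0 on acetate. All 3 acetate arrays were above all ethanol arrays, these above all glucose arrays, and these above all maltose arrays. Taken step by step, 365, 1114 and 797 of 7176 tested probe sets showed these separations. The share with the whole order was not computed. Mean PEX21 signal was 404 ± 41.3 (SD, n = 3) on acetate, 270 ± 65.3 on ethanol, 193 ± 7.29 on glucose and 159 ± 19.6 on maltose. PEX21 rose 1.87-fold on C2 compounds (log2 0.90 ± 0.15, limma adjusted p = 0.000743).

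The rise of PEX21 was the steadiest change among the 32 genes. It was called in all 23 alternative fits, with log2 values between 0.82 and 1.17 and adjusted p of at most 0.0170. The array 1 fit gave log2 1.14 and the actin ratio covariate 1.17. By pairs, acetate exceeded glucose 2.08-fold (limma adjusted p = 0.00756) and maltose 2.55-fold (adjusted p = 0.000668). The first of these calls ended in the array 1 fit and without glucose arrays 1 and 3. Ethanol exceeded maltose 1.68-fold (limma adjusted p = 0.0442), a call that ended in 17 of 23 alternatives. Ethanol against glucose was at log2 0.45 ± 0.21 (limma adjusted p = 0.291) and acetate against ethanol at 0.61 ± 0.21 (adjusted p = 0.923), so these neighbours in the order were not called apart. The ethanol readings, 335.4, 269.5 and 204.8, came with actin ratios of 3.31, 9.27 and 13.98, and the part of RNA quality in that spread was not tested.

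The paralog PEX18 was dim. It read 10.3, 15.8 and 21.2 on glucose, 18.1, 8.7 and 17.9 on maltose, 23.2, 26.7 and 27.3 on ethanol, and 19.9, 19.2 and 29.4 on acetate, with 2 sugar arrays under the floor. The groups overlapped only through glucose array 3 and acetate arrays 1 and 2. Its log2 difference was 0.60 ± 0.19, a call by limma with an adjusted p of 0.0439. The call ended on leaving out any of 8 arrays (glucose 1 or 2, maltose 1 or 2, ethanol 2 or 3, acetate 2 or 3; adjusted p up to 0.127). It ended as well after quantile normalization, with no filter on dim probe sets, with the code letter of the arrays as a block or with letter P alone, without glucose arrays 1 and 3, in the array 1 fit, and with the actin ratio covariate (log2 0.44 in the last 2).

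The import receptors themselves showed no call. PEX7 (YDR142C), the receptor that PEX18 and PEX21 serve, read 97.8, 72.6 and 107.6 on glucose, 79.3, 38.3 and 74.9 on maltose, 83.8, 99.9 and 91.8 on ethanol, and 77.0, 77.6 and 101.0 on acetate (C2 difference log2 0.24 ± 0.22). PEX5 (YDR244W), the receptor for the C-terminal targeting signal that most peroxisomal enzymes carry, read 39.5, 65.8 and 63.2 on glucose, 35.3, 9.6 and 38.6 on maltose, 53.2, 47.4 and 44.3 on ethanol, and 40.0, 32.2 and 32.7 on acetate (log2 0.13 ± 0.29). For PEX5 every acetate array was under every ethanol array, as in 409 of 7176 tested probe sets. PEX5 was under the floor on maltose array 2. The docking genes PEX13, PEX14 and PEX17 and the lumenal importomer gene PEX8 gave log2 differences of 0.12, 0.24, 0.31 and 0.46, none called (limma adjusted p from 0.0799 to 0.770); PEX8 was called without maltose array 2.

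**Figure D3:**
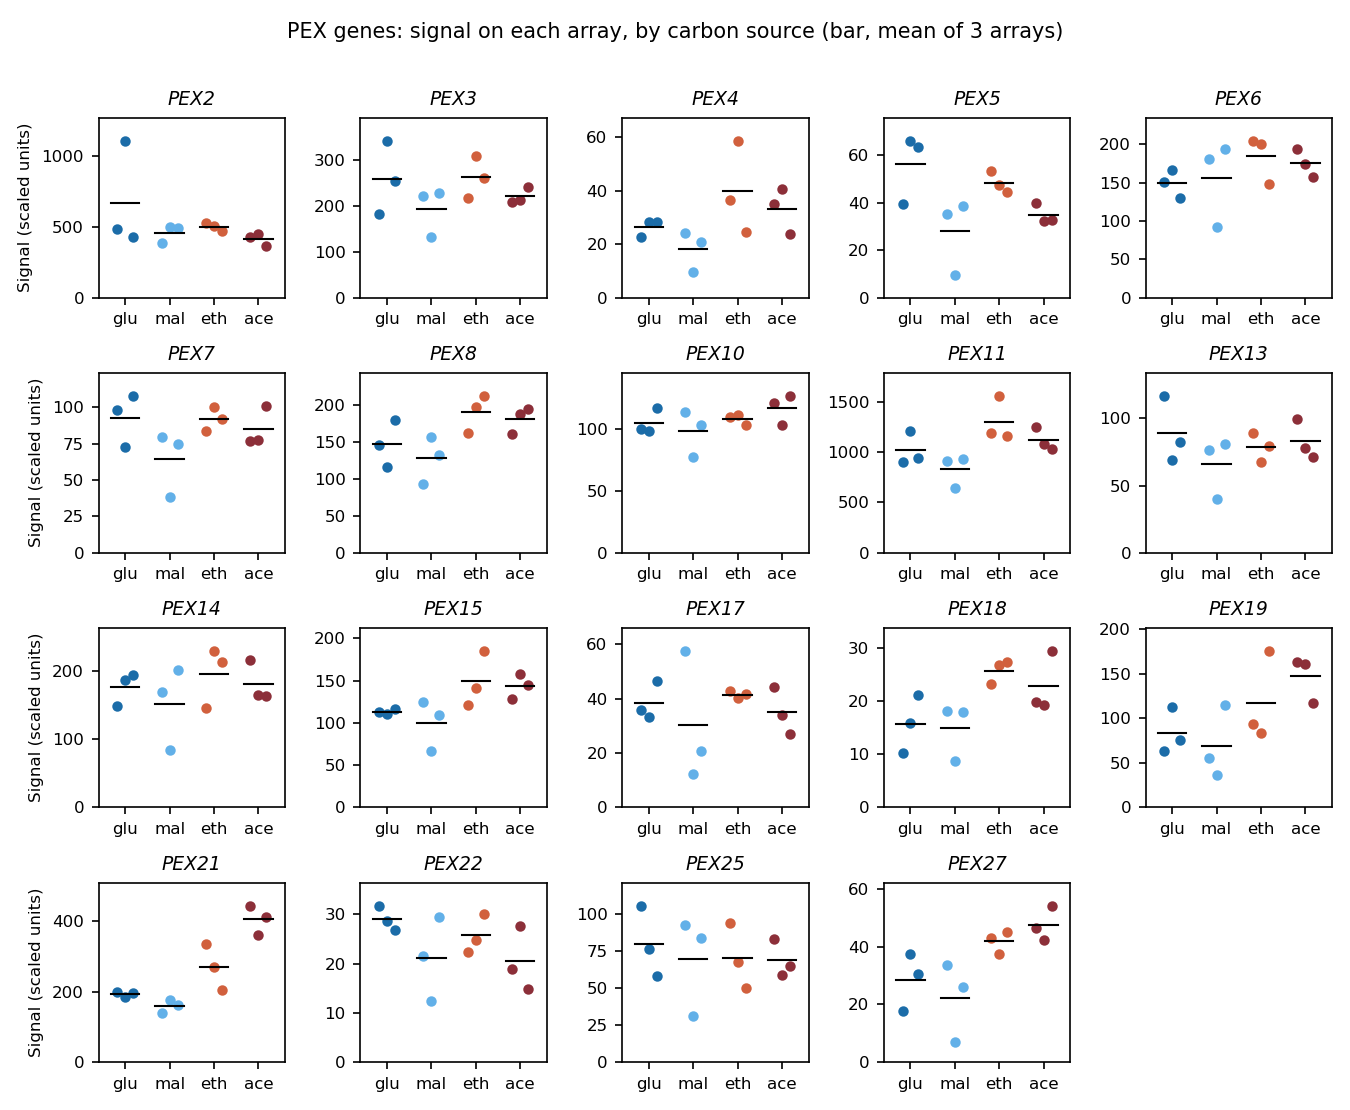
Signal in scaled units (vertical axes start at 0 and differ between panels) of the 19 PEX genes on each of the 12 arrays, by carbon source (glu, glucose; mal, maltose; eth, ethanol; ace, acetate); points are arrays 1 to 3 from left to right and bars are means of 3 arrays. In PEX21 the 4 sources do not overlap, from 138.2 to 177.2 on maltose up to 359.9 to 441.7 on acetate. The middle maltose point, from the dim array 2, is the lowest of all 12 in 16 of 19 panels. The shares of all tested probe sets with these patterns were not computed.

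Receptors are recycled from the membrane by ubiquitin and by an ATPase. The ubiquitin ligase genes PEX2 and PEX10 were not called. PEX2 (YJL210W) read 485.0, 1107.0 and 427.9 on glucose, 388.0, 499.1 and 492.3 on maltose, 526.5, 506.9 and 474.0 on ethanol, and 431.0, 453.3 and 366.4 on acetate. Glucose array 2 stood apart from the other 11, which ranged up to 526.5. PEX2 gave log2 -0.21 ± 0.19 over all arrays and a call in the fit that kept array 2 as the only glucose array (log2 -0.64).

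PEX4 (YGR133W), the ubiquitin-conjugating enzyme gene, read 22.7, 28.4 and 28.4 on glucose, 24.0, 9.6 and 20.7 on maltose, 36.6, 58.5 and 24.7 on ethanol, and 35.0, 40.6 and 23.9 on acetate. PEX22 (YAL055W), its membrane anchor, read 31.7, 28.7 and 26.8 on glucose, 21.5, 12.5 and 29.5 on maltose, 22.3, 24.9 and 30.0 on ethanol, and 19, 27.7 and 14.8 on acetate. The differences were log2 0.67 ± 0.26 and -0.10 ± 0.23, and neither passed (limma adjusted p = 0.0826 and 0.813). The ATPase gene PEX6 and its anchor gene PEX15 gave log2 0.27 and 0.47, also without a call. PEX3 and PEX19 place membrane proteins into the organelle. PEX19 (YDL065C), the membrane protein chaperone gene, read 63.5, 112.8 and 75.4 on glucose, 55.1, 36.2 and 115.0 on maltose, 93.8, 83.6 and 175.1 on ethanol, and 163.2, 160.9 and 116.8 on acetate. Its log2 difference of 0.85 ± 0.28 missed the threshold at a limma adjusted p of 0.0511. It was called with a floor of 50, with probe sets averaged by gene, without glucose array 2 and without maltose array 3 (log2 1.08 in the last). With the code letter as a block it was log2 0.51 (adjusted p = 0.313). PEX3 gave log2 0.14.

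The last group controls division and number of peroxisomes. PEX11 (YOL147C), which drives elongation of the organelle, read 899.7, 1213.8 and 942.4 on glucose, 917.2, 640.4 and 928.1 on maltose, 1192.1, 1559.2 and 1163.8 on ethanol, and 1255.0, 1085.1 and 1036.6 on acetate. Every C2 array was above every maltose array, a separation that 18.6% of tested probe sets showed for ethanol and 1577 of 7176 for acetate. The C2 difference of log2 0.41 ± 0.14 was not called (limma adjusted p = 0.0592); it was called with a floor of 50, without glucose array 2 and without maltose array 3. PEX27 (YOR193W), a relative of PEX11, read 17.7, 37.3 and 30.4 on glucose, 33.5, 7.0 and 26.1 on maltose, 43.1, 37.4 and 45.2 on ethanol, and 46.5, 42.1 and 54.0 on acetate. The lowest C2 array, 37.4, lay just above the highest sugar array, 37.3. PEX27 rose by log2 0.87 ± 0.27 (limma adjusted p = 0.0399), or 0.65 without maltose array 2, which was under the floor. That call ended on leaving out glucose array 1 or 3 or any ethanol or acetate array (adjusted p up to 0.112). It also ended with no filter, with the letter as a block, without glucose arrays 1 and 3, in the array 1 fit, and with the actin ratio covariate (log2 0.88 and 0.96 in the last 2). Its paralog PEX25 gave log2 -0.03 with a 95% interval from -0.64 to 0.59.

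Across all 4 sources, limma's F test called 1 of 13 beta-oxidation genes, FAA1 (adjusted p = 0.0276), and 1 of 19 PEX genes, PEX21 (adjusted p = 0.00245), beside 8.19% of all tested probe sets. In the 6 pairs of sources these 2 genes were also the only members called. For acetate against ethanol 0 of 32 passed, beside 0.0279% of all tested probe sets. At an unadjusted p under 0.05 there was 1 of 32, beside 308 of 7176 tested probe sets. For maltose against glucose 0 of 32 passed, beside 0.209%, and for ethanol against glucose 0 of 32, beside 2.55%. At an unadjusted p under 0.05 these pairs gave 2 and 3 of 32, beside 831 and 1163 of 7176 tested probe sets. Acetate against glucose gave FAA1 and PEX21 (background 5.5% in either direction), and each C2 compound against maltose gave PEX21 alone (background 6.19% for ethanol and 11.2% for acetate).

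The PEX values against maltose depended on maltose array 2. The pairs with maltose share its arrays, so their values are given side by side. The PEX median was log2 0.60 for ethanol against maltose, 0.46 for acetate against maltose and -0.32 for maltose against glucose. In the first of these 19 of 19 genes were above 0, beside 67.4% of all tested probe sets, and 15 of 19 without maltose array 2, beside 55.1%. With the array, 8 of 19 had all ethanol arrays above all maltose arrays, beside 18.6% of all tested probe sets. Without maltose array 2 these medians were 0.27, 0.11 and -0.15, and over all tested probe sets they went from 0.21, 0.23 and -0.20 to 0.06, 0.09 and -0.03. This alternative was chosen after seeing the data. The beta-oxidation medians were 0.29, 0.20 and -0.30 with the array and 0.11, 0.03 and -0.21 without it.

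**Figure D4:**
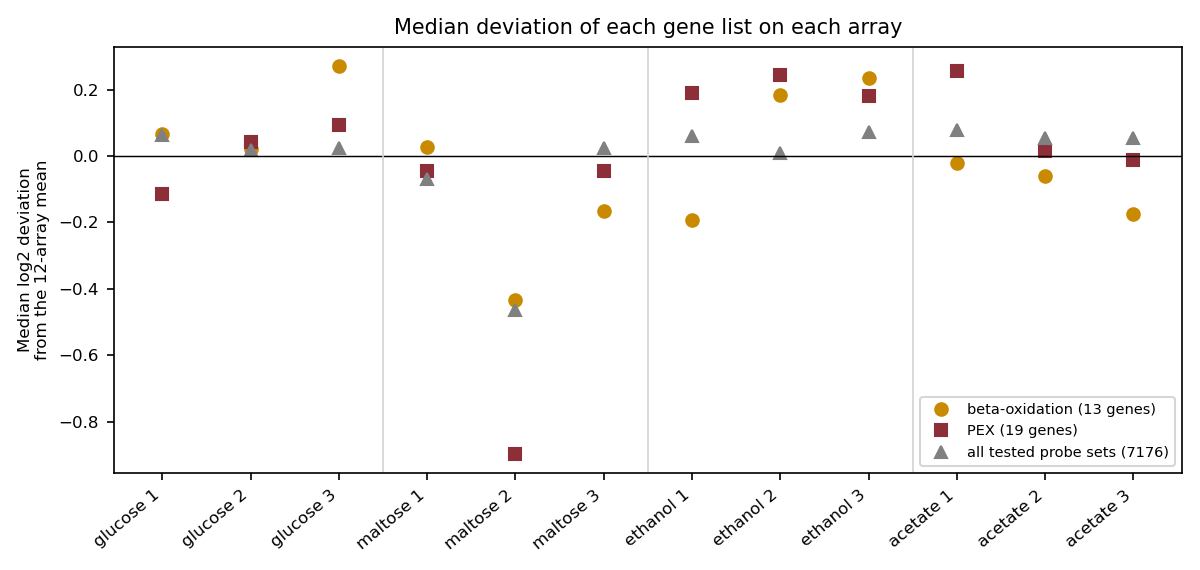
Median over the 13 beta-oxidation genes, the 19 PEX genes and all tested probe sets of the log2 deviation from each probe set's mean over 12 arrays (vertical axis, log2), by array (horizontal axis). On maltose array 2 the PEX median is -0.90, the beta-oxidation median -0.44 and the overall median -0.46; on the other 11 arrays the PEX median lies between -0.11 and 0.26.

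By array, the PEX median deviation was 0.19, 0.24 and 0.18 on ethanol and 0.26, 0.01 and -0.01 on acetate, while it was -0.11, 0.04 and 0.09 on glucose. The beta-oxidation median was -0.19, 0.18 and 0.23 on ethanol, -0.02, -0.06 and -0.18 on acetate and 0.07, 0.02 and 0.27 on glucose. On ethanol the beta-oxidation median was below 0 in culture 1 and above 0 in cultures 2 and 3. Of the 13 beta-oxidation genes, 8 had their highest signal of all 12 arrays on ethanol array 2 or 3, 4 on each. On acetate arrays 2 and 3, which also had high actin ratios, the count was 0. The share of all probe sets with their highest signal on these arrays was not computed. The part of RNA quality in these counts was not tested.

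The other genes of the pathway came from a fixed list of peroxins, division factors, fatty acid activation genes, peroxisomal enzymes and regulators, 38 of them tested. Of 13 other peroxins and division factors, 1 rose and 0 fell, beside 11.4% and 5.69% of all tested probe sets. It was PEX9, an alternative import receptor gene, at log2 0.62 ± 0.21 (limma adjusted p = 0.0484) with 2 sugar arrays under the floor, a call lost in 16 of 22 alternatives. The fission factor gene FIS1 was called for acetate against maltose, at 380.2, 368.4 and 372.8 against 195.1, 178.3 and 279.3 (log2 0.81 ± 0.23, limma adjusted p = 0.0351), and not in the C2 comparison (log2 0.37, adjusted p = 0.128). Its pair call ended in 11 of 23 alternatives, among them leaving out maltose array 1 or 2 or any acetate array. In that pair 11.2% of all tested probe sets were called in either direction. Of the 5 fatty acid uptake and activation genes 0 passed in the C2 comparison by limma. At an unadjusted p under 0.05 there was 1, beside 2293 of 7176 tested probe sets. That gene was FAA3, an acyl-CoA synthetase gene, at log2 0.82 ± 0.28 (limma adjusted p = 0.0511), and it was called in 3 of 23 alternatives. For acetate against maltose FAA3 was called at 54.2, 68.0 and 46.7 against 24.4, 10.1 and 35.5 (log2 1.35 ± 0.39, limma adjusted p = 0.0383). That call ended in 14 of 23 alternatives, among them leaving out glucose array 1 or 3, maltose array 1 or 2, ethanol array 2 or any acetate array. FAA4, the other main long-chain synthetase gene beside FAA1, gave log2 -0.08 (95% interval -0.41 to 0.25).

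Of 13 genes on the fixed list of other peroxisomal enzymes, 7 rose and 1 fell on C2 compounds, beside 11.4% and 5.69% of all tested probe sets. Whether their products lay in peroxisomes in these cultures was not measured. MLS1, encoding malate synthase, read between 254.8 and 530.9 on the sugar arrays and between 2428.5 and 4421.1 on the C2 arrays. CIT2, encoding peroxisomal citrate synthase, read 176.2 to 757.8 against 2137.0 to 2862.3, and CAT2, the carnitine acetyltransferase gene, 347.1 to 653.3 against 1150.5 to 1815.2. In each of these, and in AAT2 (described below), all C2 arrays were above all sugar arrays. That made 4 of 13 genes, beside 5.76% of all tested probe sets. The enzymes encoded by MLS1, CIT2 and CAT2 take up acetyl groups from coenzyme A. The calls of CIT2 and CAT2 ended in the array 1 fit (limma adjusted p = 0.0806 and 0.0941), and MLS1 was called in all 23 alternatives.

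Smaller rises were found for LPX1, a peroxisomal lipase gene (1.82-fold), NPY1, an NADH pyrophosphatase gene (1.64-fold), AAT2, an aspartate aminotransferase gene (1.59-fold), and LYS1, the last gene of lysine synthesis (1.38-fold). The limma adjusted p ran from 0.00399 to 0.0355, and the calls of NPY1 and LYS1 ended in 16 and 13 of 23 alternatives. Those of LPX1 and AAT2 ended in 4 and 3, the array 1 fit and the actin ratio covariate among them. The gene that fell was PNC1, a nicotinamidase gene whose product enters peroxisomes with Gpd1 (1.69-fold lower, limma adjusted p = 0.00874). Its call ended in 4 of 23 alternatives, the array 1 fit, the actin ratio covariate, the letter as a block and letter P alone (adjusted p up to 0.389). GPD1, whose product carries the N-terminal signal that Pex7 recognises, gave log2 -0.42 ± 0.15 without a call in the C2 comparison (limma adjusted p = 0.0744). It was called lower on acetate, at 691.2, 475.3 and 498.4, than on maltose, at 762.6, 1200.4 and 803.6 (log2 -0.72 ± 0.22, limma adjusted p = 0.0442). That call ended in 15 of 23 alternatives, among them the replicate block and leaving out any glucose array, maltose array 2, ethanol array 2 or acetate array 2 or 3. MDH3 and IDP3, which handle the NADH and NADPH of beta-oxidation inside the organelle, gave log2 0.06 and -0.26, also not called.

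**Figure D5:**
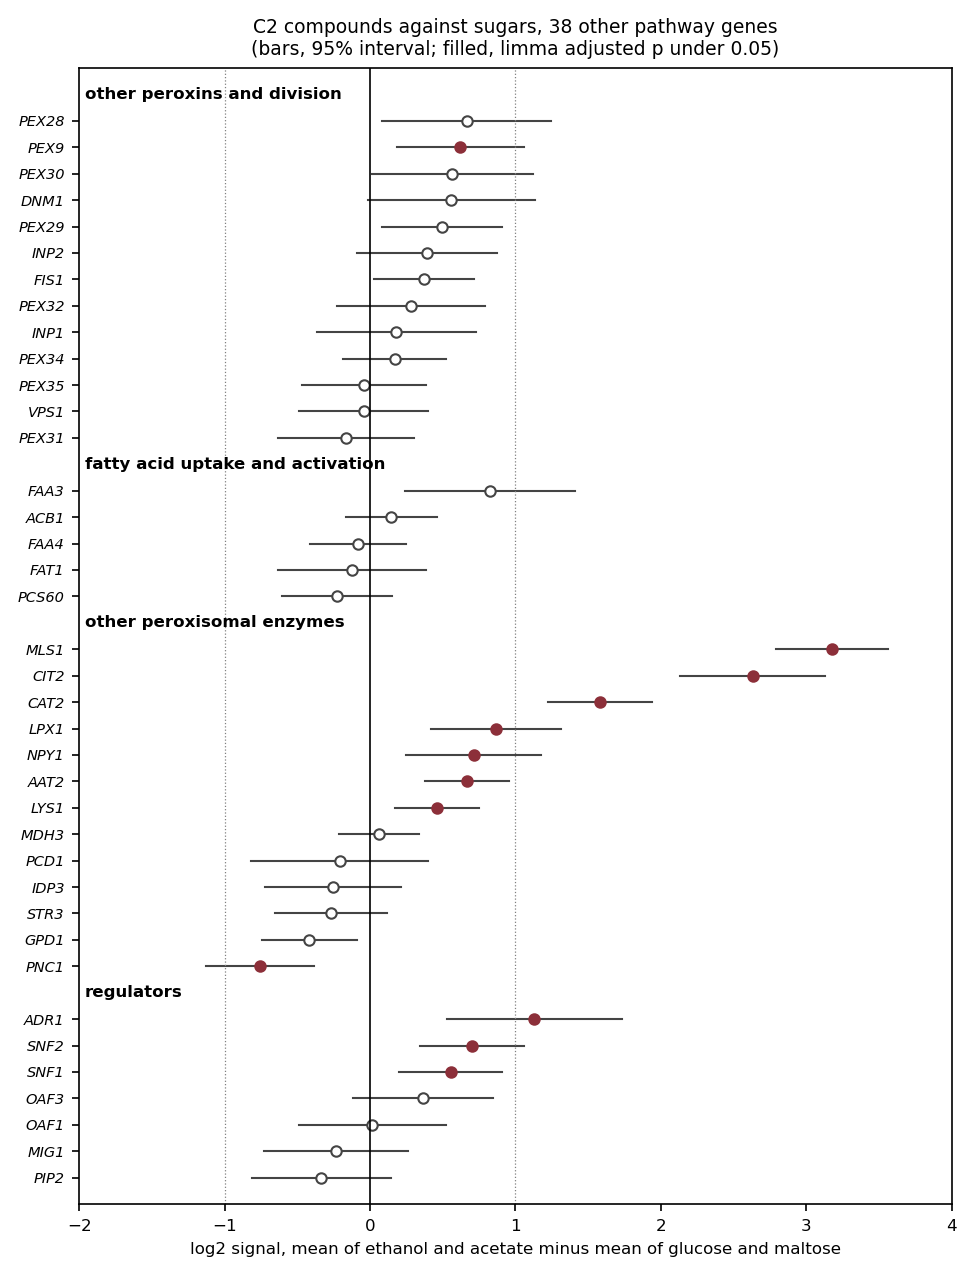
Log2 difference of C2 compounds against sugars for the 38 other pathway genes tested, with 95% intervals from limma (12 arrays), in 4 groups; filled points passed at an adjusted p under 0.05 and dotted lines mark 2-fold. MLS1 (log2 3.18), CIT2 (2.63) and CAT2 (1.58) have the 3 highest differences, followed by ADR1 (1.13), and PNC1 (-0.76) is the filled point to the left of 0.

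Among 7 regulators 3 rose in the C2 comparison and 0 fell, beside the same 11.4% and 5.69%. ADR1, encoding the activator of peroxisomal genes in derepressed cells, read 51.3, 56.1 and 49.6 on glucose, 32.9, 16.9 and 49.1 on maltose, 120.4, 68.5 and 50.2 on ethanol, and 113.6, 104.7 and 87.1 on acetate. Acetate was above every sugar array, beside 1403 of 7176 tested probe sets above glucose and 1577 above maltose. Ethanol array 3 of ADR1 was within the glucose range. The log2 difference was 1.13 ± 0.28 (limma adjusted p = 0.0133), a call lost in 4 of 23 alternatives, where the adjusted p reached 0.232. SNF1, the kinase gene of glucose derepression, and SNF2, a chromatin remodeller gene, gave log2 0.55 and 0.70 (limma adjusted p = 0.0321 and 0.0110), calls that ended in 10 and 5 of 23 alternatives.

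The oleate regulators were not called. OAF1 read 130.7, 84.4 and 92.8 on glucose, 66.9, 31.1 and 71.0 on maltose, 63.4, 82.2 and 72.9 on ethanol, and 73.5, 80.2 and 72.1 on acetate. PIP2 read 90.4, 58.4 and 88.1 on glucose, 68.5, 51.8 and 80.9 on maltose, 65.9, 49.6 and 49.4 on ethanol, and 75.4, 49.1 and 55.6 on acetate. Their C2 differences were log2 0.02 (95% interval -0.49 to 0.52) and -0.33 (-0.81 to 0.14).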

How the data were processed

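The values are probe set intensities on a linear scale, as deposited by the authors. MAS5 is named in the submitters' processing notes for every array except those of glucose. For the glucose arrays the software, and for MAS5 the version, are not given in the sources used. The columns share a 2% trimmed mean, checked on the values. Of 9335 probe sets, 60 controls were left out, and 7176 of the other 9275 exceeded the floor of 12 on at least 3 arrays and were tested. Matched through GEO's platform annotation and RefSeq names, 6504 of the 9275 had 1 gene, 328 several and 2443 none. Signals were rescaled, floored, log2 transformed and fitted with limma 3.58.1 in R 4.3.3 (1 mean per source, all 12 arrays, eBayes with an intensity trend), with Benjamini-Hochberg adjustment over all tested probe sets of each contrast. A p-value here reflects only how cultures of 1 source vary. The fit was tested on simulated data with planted changes. The simulation gave all probe sets the same spread and planted changes of at least 2-fold, in brighter probe sets only. It cannot show how smaller changes or dim probe sets are recovered.

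The rule for members uses names alone, but the members and gene lists were chosen with earlier results of these data known. Arrays have no read depth, so their number and the signal over the floor limit precision. Genes given array by array were those called, the 3 largest C2 differences and the 3 highest and 3 lowest mean signals per group, and CTA1, POX1, FOX2, POT1, PEX5, PEX7, PEX18, PEX21 and PEX11; other pathway genes were named where called, and FAA4, MDH3, IDP3, OAF1 and PIP2 after their values were seen. Alternatives covered floor, filter, normalization, variance trend, replicate block, RNA quality, array code letter, glucose arrays 1 and 3, probe set averaging and each array left out. The covariate for the actin ratio was the mean log2 ratio of 3' to 5' signal over actin and another control gene. The sources name no genome build, so no coordinates are given, and no sequences were used here.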

Additional observations from a re-analysis of the deposited data

How the results depend on the processing

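The summary results (the counts of called beta-oxidation and PEX genes for C2 compounds against sugars and over the 4 sources, both list medians, and the members called in any pair) were recomputed under 23 alternatives, and 122 of 161 values stayed within 1.5 times the count or within the spread between replicates. No call of a single gene reversed its direction in these alternatives. Beta-oxidation calls for C2 compounds against sugars were 2 in place of 1 with a floor of 50 and after quantile normalization (CTA1 joined FAA1 in both), and 0 with a covariate for the actin ratio, in the fit that kept array 1 alone for each C2 source, and without glucose arrays 1 and 3. Over the 4 sources they were 0 in place of 1 in these last 3, with no filter and with no intensity trend. PEX calls for C2 compounds against sugars were 1 in place of 3 with no filter, with the actin covariate, in the array 1 fit and when arrays were blocked by code letter. Over the 4 sources they were 0 in place of 1 in the array 1 fit and 2 without glucose arrays 1 and 3. Members called in any pair numbered 4 in place of 2 with a floor of 50, where 26 of 32 members could be tested, and 1 with no filter, with the actin covariate and in the array 1 fit. Calls over all tested probe sets numbered 1225, against 789 with no filter, 147 with the actin covariate, 172 in the array 1 fit, 568 when blocked by code letter, 699 with letter P alone and 478 without glucose arrays 1 and 3; leaving out 1 array gave 705 to 1524. The fits with fewer arrays have fewer residual degrees of freedom; the cause of the other shifts was not tested.

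Leaving out 1 array at a time gave 1 to 2 beta-oxidation and 1 to 5 PEX calls for C2 compounds against sugars, 0 to 2 and 1 to 2 over the 4 sources, and 1 to 5 members in the pairs. The list medians ran from 0.02 to 0.14 (beta-oxidation) and from 0.07, without maltose array 2, to 0.36, without maltose array 3 (PEX). Over all tested probe sets the median was 0.05 without maltose array 2 and 0.17 without maltose array 3. The replicate block gave the same counts, 1 and 3, and ended the call of PEX21 for ethanol against maltose and that of GPD1 for acetate against maltose. It also ended the call of SNF1 for ethanol against maltose (log2 0.82, limma adjusted p = 0.0488 without the block). The labels do not say that a replicate number pairs cultures, and same-numbered deviations correlated between -0.21 and 0.53 in 18 pairs, with 6 over 0.1. In the fit among arrays with code letter P, 1 beta-oxidation and 2 PEX genes were called. Signal over background limits PEX4, PEX5, PEX18, PEX27 and DCI1, which were under the floor on maltose array 2.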
